A study of Mus musculus with 42 samples.

Results

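H3K27me3, the trimethyl mark on lysine 27 of histone H3, was mapped by ChIP-seq in mouse bone marrow mesenchymal stromal cells (MSCs) given tributyltin (TBT) or the solvent dimethyl sulfoxide (DMSO). All 8 H3K27me3 libraries of the series were used, 4 per treatment, out of 42 samples in all. The cells came from C57BL/6 mice, were bought and used after several passages in culture, and are a commercial MSC stock and not freshly isolated marrow, per the labels. The DMSO group received 0.1% DMSO and the TBT group 50 nM TBT, both for 48 h. TBT is an organotin compound that activates the retinoid X receptors (RXR) and PPARγ, and the title of the series asks what activation of RXR does to chromatin in MSCs. Each treatment has 1 input library (sheared chromatin without antibody), so the 4 libraries of a treatment share it. The labels do not say that the replicates came from separate cultures, so every p-value here measures the spread between these libraries, which may be technical.

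Polycomb repressive complex 2, with EZH2 or EZH1 as its catalytic subunit, writes H3K27me3, and the demethylases KDM6A and KDM6B remove it. The mark lies in broad domains over genes of other lineages, among them Hox genes, neural regulators and signalling ligands, whose promoters are often rich in CG dinucleotides. In MSCs, which can form fat, bone and cartilage cells, it is also known over regulators of these lineages that are not in use.

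The islands, stretches of the genome where the ChIP reads of 1 library stood above its input, were called by the authors separately in each library. Autosomal islands of the 8 libraries that touched or overlapped were merged here into 67899 regions. An island lay in all 8 libraries in 2859 of them (4.21%), with a median width of 30600 bases, and in a single library in 40159 (59.1%), with a median width of 3200 bases. The regions shared by all 8 libraries held 47.8% of all reads in islands and the single-library regions 9.59%. The median fold of an island over input was low throughout, 1.41 in the shared regions and 1.45 in those of a single library.

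**Figure D1:**
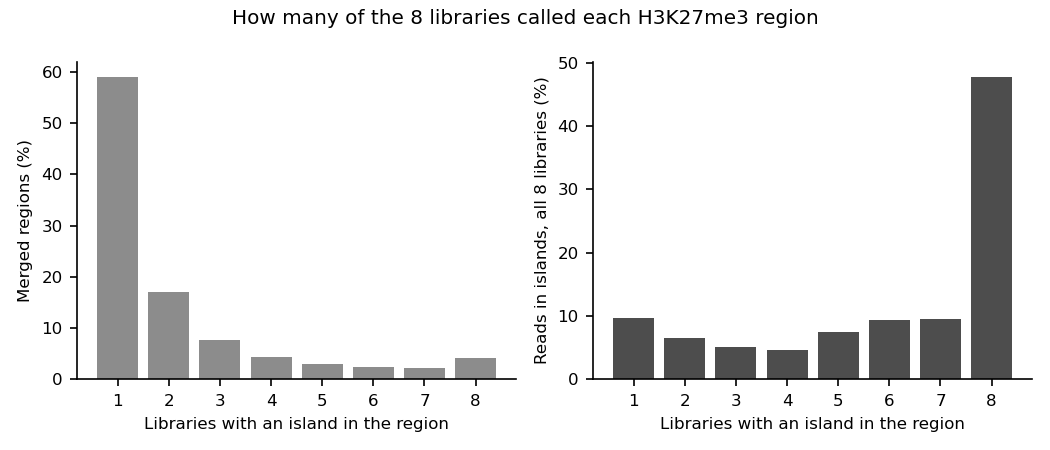
Share of the 67899 merged regions (left, percent) and of all island reads (right, percent) by the number of libraries with an island in the region. The tallest bar on the left is the single-library class at 59.1%, and the tallest on the right is the class of all 8 libraries at 47.8%.

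Of the 2859 shared regions, 1796 held a gene start or lay within 2000 bases of one. RefSeq start sites were at hand for 25748 autosomal genes, and 1400 of them (5.44%) had a start inside an island in all 8 libraries, while 16089 had one in no library. Of the neural regulators with a start, 23 of 28 were in islands of all 8 libraries, among them Olig2 and Neurog2, which specify glial and neuronal precursors. The same was so for 39 of 68 developmental transcription factors, for 23 of 35 Wnt, hedgehog, BMP and FGF ligands and for 9 of 22 Hox genes. It held for 0 of 10 always-expressed genes, 0 of 14 stromal cell markers and 0 of 24 genes of the H3K27 methylation machinery. In lists this short, 0 lies near the share of 5.44% over all genes. Starts in islands of 1 to 7 libraries numbered 1, 7 and 13 in these lists, beside 8259 of the 25748 genes. The 20 gene lists were drawn up with earlier results of these data known, and they are described here by counts only.

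To show what marked and unmarked starts look like, 5 promoters are printed from RefSeq (GRCm38.p6), 250 bases before to 50 after the start, 5′ to 3′ on the gene's strand with every CG in capitals. Olig2 (chr16:91225300-91225599, plus strand, 25 CG) and Lhx4, a LIM homeobox regulator (chr1:155741978-155742277, minus strand, 19 CG), had the highest mean folds among the listed developmental and neural regulators in islands of all 8 libraries. Pde1b, a phosphodiesterase gene (chr15:103502784-103503083, plus strand, 28 CG), was in islands of all 8 libraries, and Cebpa, an adipogenic transcription factor (chr7:35119043-35119342, plus strand, 29 CG), in 3 DMSO and 4 TBT libraries. Gapdh, a glycolytic gene that every cell uses (chr6:125165724-125166023, minus strand, 12 CG), was in none.
Olig2: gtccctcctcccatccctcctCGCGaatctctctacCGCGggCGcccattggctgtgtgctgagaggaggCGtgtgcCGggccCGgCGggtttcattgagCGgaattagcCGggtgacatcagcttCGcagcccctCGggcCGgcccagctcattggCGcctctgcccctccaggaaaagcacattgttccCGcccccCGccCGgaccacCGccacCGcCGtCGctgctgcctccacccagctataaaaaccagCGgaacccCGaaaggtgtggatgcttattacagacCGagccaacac
Lhx4: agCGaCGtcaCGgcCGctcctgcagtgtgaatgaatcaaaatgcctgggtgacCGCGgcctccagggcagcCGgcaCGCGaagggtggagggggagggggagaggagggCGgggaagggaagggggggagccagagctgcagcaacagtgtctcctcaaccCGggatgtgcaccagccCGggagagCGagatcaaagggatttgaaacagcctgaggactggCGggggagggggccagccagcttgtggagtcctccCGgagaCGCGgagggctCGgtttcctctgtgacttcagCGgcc
Pde1b: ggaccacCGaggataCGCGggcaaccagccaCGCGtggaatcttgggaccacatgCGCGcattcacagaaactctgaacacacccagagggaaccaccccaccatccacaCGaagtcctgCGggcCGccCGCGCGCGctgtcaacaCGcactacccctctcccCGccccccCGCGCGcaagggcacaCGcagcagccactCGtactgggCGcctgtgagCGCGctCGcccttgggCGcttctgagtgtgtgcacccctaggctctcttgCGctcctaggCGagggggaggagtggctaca
Cebpa: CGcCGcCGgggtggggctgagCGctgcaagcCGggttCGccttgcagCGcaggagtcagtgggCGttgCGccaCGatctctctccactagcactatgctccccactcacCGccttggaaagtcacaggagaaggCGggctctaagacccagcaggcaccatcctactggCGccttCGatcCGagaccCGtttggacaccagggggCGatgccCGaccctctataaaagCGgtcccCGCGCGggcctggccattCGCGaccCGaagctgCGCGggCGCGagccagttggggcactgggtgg
Gapdh: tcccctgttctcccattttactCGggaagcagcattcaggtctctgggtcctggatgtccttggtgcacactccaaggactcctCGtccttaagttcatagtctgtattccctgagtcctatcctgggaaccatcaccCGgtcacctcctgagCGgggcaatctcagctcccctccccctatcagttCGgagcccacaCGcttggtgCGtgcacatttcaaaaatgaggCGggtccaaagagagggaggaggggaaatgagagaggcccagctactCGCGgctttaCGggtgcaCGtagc
The dinucleotide CG was searched in the 300 bases as printed, and it reads the same on both strands. Over all 31396 start sites the median was 7.00 CG, and 94.8% held at least 1. The 1663 starts in islands of all 8 libraries had a median of 17 (quartiles 8.00 and 28.0), and the 19868 starts in no island 6.00 (quartiles 2.00 and 20).

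At Olig2 the authors' fold of the island over the start was 2.09, 1.97, 2.63 and 2.78 in DMSO replicates 1 to 4 and 2.38, 2.55, 3.09 and 3.17 in TBT replicates 1 to 4. At Lhx4 it was 2.29, 2.07, 2.28 and 3.12 under DMSO and 3.00, 2.27, 3.05 and 2.92 under TBT. At both starts every library was enriched and the groups overlapped. Since each treatment has its own input, folds are compared between treatments with that limit.

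The Hox clusters, which pattern the body axis, were covered unequally. The Hoxd cluster was covered over 92.2%, 76.3%, 88.9% and 90.3% of its length in the DMSO libraries and 95.0%, 94.0%, 95.5% and 90.3% in the TBT libraries, and 8 of its 9 genes held an island in every library. The Hoxa, Hoxb and Hoxc clusters were covered over 8.04% to 33.4% of their length, and each had 5 genes with no island in any library. In these 3 clusters the genes with an island in every library were Hoxa13, Hoxb13, Hoxc12 and Hoxc13, at the posterior end; the first 3 were covered over 100% in all 8 libraries, while Hoxa5 and Hoxc8 were at 0% in all 8. The RNA libraries of the same study, 6 per treatment, had transcripts of uncovered genes, with Hoxc8 at 73.1 ± 3.28 CPM (counts scaled to the size of the library, SD, n = 6) and Hoxa5 at 13.1 ± 1.88 CPM under DMSO, while Hoxd13 had no count in any library and Hoxd9 at most 0.496 CPM.

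Between treatments the cluster coverage differed by less than the tests could separate. The mean covered share was 86.9% ± 7.18 under DMSO and 93.7% ± 2.35 under TBT for Hoxd (SD, n = 4, exact two-sided permutation p = 0.0857). It was 13.0% ± 5.16 and 24.0% ± 6.83 for Hoxa (exact p = 0.0571), 17.3% ± 1.27 and 22.5% ± 2.96 for Hoxc (exact p = 0.0571), and 15.4% ± 4.40 and 16.8% ± 0.911 for Hoxb (exact p = 0.600). These are 4 tests, and with 4 libraries against 4 the smallest p possible is 0.0286. Hoxb1, the most anterior of the Hoxb genes, was covered over 100%, 0%, 73.9% and 81.9% under DMSO and 0%, 0%, 0% and 10.1% under TBT. Its groups overlapped through DMSO replicate 2.

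Lineage genes of MSCs fell into several kinds. Myod1, the master regulator of muscle, was covered over 100% of its length in all 8 libraries, and the eye and pancreas regulator Pax6 over 73.5% to 95.2%. Ebf2, a regulator of brown and beige fat cells, was covered over 20.1%, 49.7%, 33.2% and 52.5% under DMSO and 49.7%, 33.6%, 54.6% and 65.6% under TBT. Fabp4, a fatty acid-binding protein gene, the cell cycle inhibitor gene Cdkn2a, Fgf21 and Angptl7 had no island in any library. Pparg, the main regulator of fat cell formation, and Runx2, that of bone, held islands over at most 5.56% and 7.65% of their length. Of the 23 adipogenic regulators with a start, 4 were in islands of all 8 libraries (Klf15, Zfp423, Gpam and Bmp4), and of 17 adipocyte markers 3 were (Lep, Acvr1c and Ucp1).

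Genes of nuclear receptors and of retinoid handling, the pathway TBT acts on, held the mark at 8 of 39 starts in all 8 libraries. They include Aldh1a2, which makes retinoic acid, with a mean fold of 1.93 ± 0.18 under DMSO and 2.10 ± 0.22 under TBT (SD, n = 4), and Cyp26a1, which breaks it down, with 1.69 ± 0.16 and 1.86 ± 0.33. Neither had enough RNA to test. Crabp1, which binds retinoic acid in the cytoplasm, had mean folds of 1.47 ± 0.18 and 1.48 ± 0.10 and RNA at 71.2 CPM under DMSO and 54.8 CPM under TBT, so a covered start and transcript were both present. Among 24 imprinted genes, which are transcribed from the copy of 1 parent, 7 starts were in islands throughout. Of these, Grb10 had mean folds of 2.29 ± 0.09 and 2.32 ± 0.38 with RNA at 174 and 192 CPM, and Dlk1 1.81 ± 0.28 and 1.71 ± 0.36 with RNA at 153 and 138 CPM. Igf2 and Zdbf2 had folds of 1.98 ± 0.35 and 2.77 ± 0.33 and of 2.83 ± 0.99 and 2.92 ± 0.08, and neither had enough RNA to test.

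The strongest and the longest regions were of different kinds. The highest fold over input in the regions of all 8 libraries was on Vwa5b2 (chr16:20588000-20593399, 5.40 kb), at 2.94, 3.02, 3.43 and 3.84 under DMSO and 3.64, 3.17, 4.28 and 4.96 under TBT. The longest region (chr15:77940800-78445999, 505 kb) took in the calcium channel subunit gene Cacng2 and 7 other genes with a start there or within 2000 bases, at folds of 1.13, 1.19, 1.23 and 1.24 and of 1.19, 1.23, 1.28 and 1.31. A region of 401 kb on chromosome 8 held Irf8, a regulator of myeloid blood cells, and Fendrr (mean fold 1.29 ± 0.07 and 1.39 ± 0.08, SD, n = 4), and one of 329 kb on the same chromosome held Sox1, a neural regulator (1.40 ± 0.11 and 1.50 ± 0.09). In each of these 4 regions the treatments overlapped. A region's fold is an average: at the Sox1 start the island folds had means of 1.89 ± 0.36 and 2.44 ± 0.38.

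Some lineage genes varied from library to library. Cebpa was covered over 0%, 57.2%, 100% and 80% of its length under DMSO and over 100%, 80%, 100% and 100% under TBT. Wnt10b, a ligand that holds back fat cell formation, was covered over 0%, 0%, 82.8% and 0% under DMSO and 34.8%, 93.5%, 89.3% and 90.8% under TBT. Plin4, a lipid droplet coat gene, was covered over 100%, 0%, 0% and 0% and over 67.8%, 0%, 67.8% and 100%. In all 3 genes DMSO and TBT libraries overlapped. At the starts of Cfd and Retn, which encode proteins secreted by fat cells, islands lay in 1 DMSO and 4 TBT libraries, and at Ramp3, a receptor activity-modifying protein gene, in 3 DMSO and 0 TBT libraries. Ramp3 RNA was lower under TBT (5.61 ± 1.86 and 1.54 ± 0.996 CPM, SD, n = 6). Coverage of single genes was described and not tested.

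**Figure D2:**
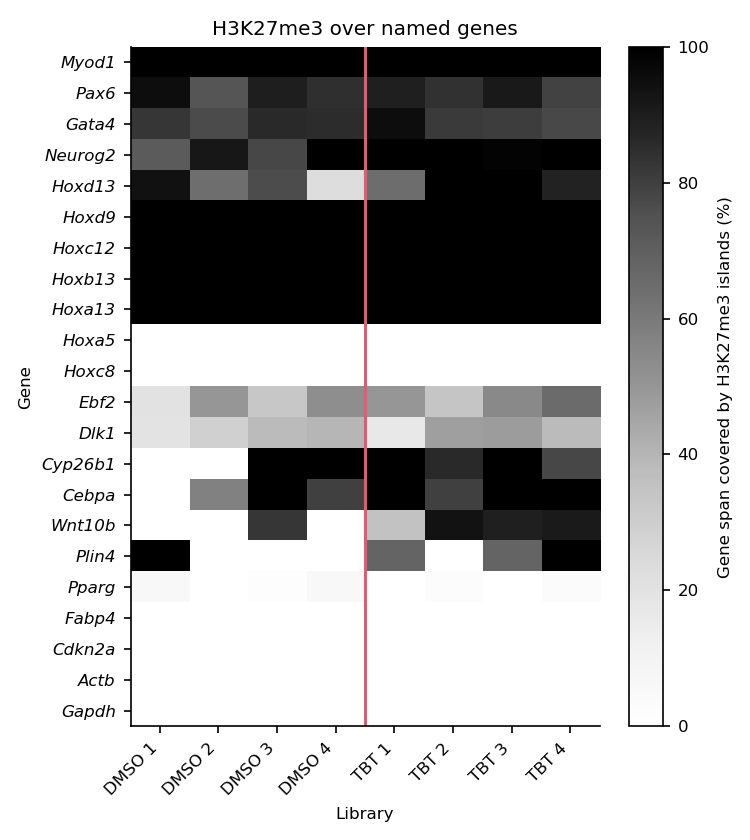
Share of the gene's length covered by H3K27me3 islands (grey scale, 0 to 100%) for 22 genes (rows) in the 4 DMSO and 4 TBT libraries (columns, split by the line). Myod1 and Hoxa13 are black throughout and Hoxa5 and Actb white throughout, while Cebpa, Wnt10b and Plin4 change from library to library within a treatment.

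The first comparison asked whether TBT changed how much of the genome carried the mark. Islands covered 140, 105, 148 and 165 Mb in DMSO replicates 1 to 4 and 169, 154, 175 and 175 Mb in TBT replicates 1 to 4. The TBT libraries thus lay at the upper end with 1 TBT library (replicate 2) inside the DMSO range. The means were 140 ± 25.3 and 168 ± 10.1 Mb (SD, n = 4), a difference of 28.4 Mb with an exact two-sided permutation p = 0.0571 (adjusted p = 0.228 over 8 library measures, Benjamini-Hochberg). DMSO replicate 2 was the lowest of all libraries in covered length and in island reads (6053178, against 8631306 to 11266617 in the others), and on the first principal component of the region counts (24.1% of the variance) it lay at -33.4, with the other libraries between -3.8 and 8.6. Without it the covered lengths differed by 16.9 Mb. Without DMSO replicate 4 they differed by 37.0 Mb and the groups no longer overlapped (exact p = 0.0286).

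Gene starts inside islands numbered 4000, 3170, 4952 and 5186 under DMSO and 5290, 5484, 5741 and 6064 under TBT, so the groups did not overlap. The means were 4327 ± 926 and 5645 ± 335 (SD, n = 4, exact permutation p = 0.0286, adjusted p = 0.228). Leaving out any 1 TBT library gave an exact permutation p = 0.0857 to 0.114, and leaving out any 1 DMSO library gave 0.0286. The groups stayed apart in each of these settings. This count was examined after the data had been seen. Per covered Mb, which takes out the covered length, there were 28.5, 30.2, 33.4 and 31.4 starts under DMSO and 31.4, 35.7, 32.8 and 34.6 under TBT, with overlap and exact p = 0.114 (adjusted p = 0.274). Reads in islands, islands per library and the median fold of islands did not separate the groups either (exact p = 0.143, 0.257 and 0.771). The median fold was 1.33, 1.41, 1.43 and 1.47 under DMSO and 1.39, 1.40, 1.42 and 1.50 under TBT.

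**Figure D3:**
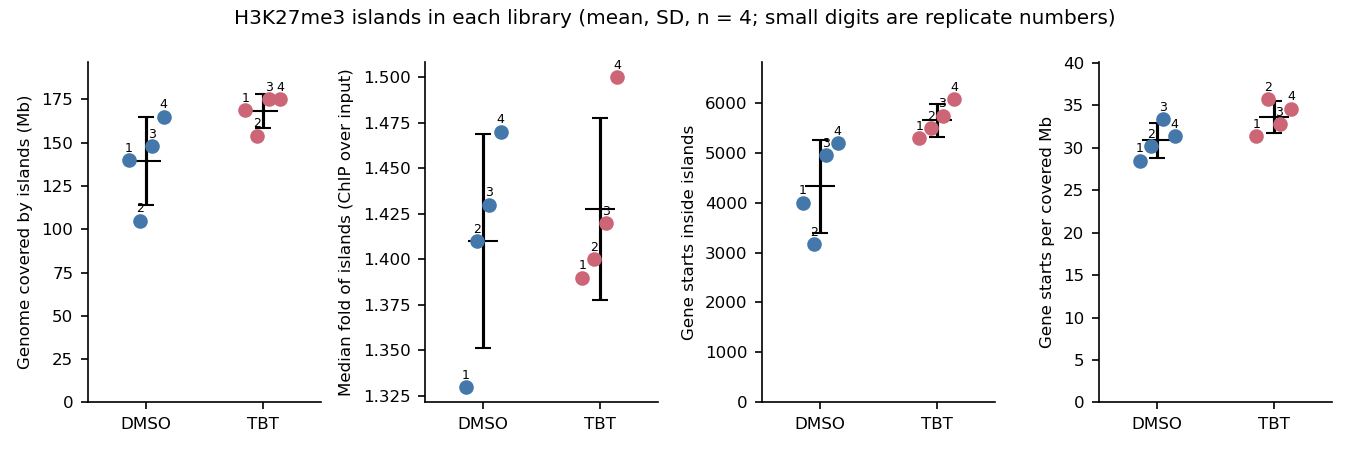
Covered genome (Mb), median fold of islands (axis not from 0), gene starts inside islands and gene starts per covered Mb in each library (points, with replicate numbers; bars are mean and SD, n = 4). The TBT points lie above all DMSO points only for gene starts inside islands, 5290 to 6064 against 3170 to 5186.

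Of the bases covered in either library of a pair, a median of 26.6% were covered in both within DMSO (23.3% to 32.4%, 6 pairs), 33.2% within TBT (30.4% to 36.3%, 6 pairs) and 27.9% across treatments (19.5% to 34.1%, 16 pairs). Pairs of TBT libraries shared the most in the median, and the median of DMSO pairs lay below that of pairs across treatments. The low DMSO median rests on replicate 2. DMSO pairs with it shared 23.6%, 23.3% and 24.2%, and those without it 29.0%, 31.0% and 32.4%. Pairs across treatments shared 19.5% to 21.6% with DMSO replicate 2 and 24.0% to 34.1% without it.

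The second comparison asked which regions gained or lost the mark. Reads were compared in the 2859 regions with an island in all 8 libraries, since the deposited files give no read count where no island was called. edgeR's quasi-likelihood test called 0 regions higher (0%) and 0 lower (0%) under TBT at an adjusted p of 0.05. The smallest adjusted p was 0.103, 186 regions had an unadjusted p under 0.05 (6.51%), and reads varied between libraries of a treatment by 34.4% (edgeR's common coefficient of variation). With the same counts, DESeq2 called 17 regions higher (0.595%) and 9 lower (0.315%). The 4 TBT libraries lay above all 4 DMSO libraries in 66 regions (2.31%) and below them in 66 (2.31%).

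The 5 regions with the smallest edgeR p in each direction are given although none passed that test; 9 of these 10, all but Elapor2, are among the 26 that DESeq2 called. The region chr8:117998800-118067399 had no RefSeq gene start in it or within 2000 bases. It held 220, 184, 213 and 136 CPM under DMSO and 551, 625, 429 and 601 CPM under TBT (log2 change 1.55 ± 0.22 SE, adjusted p = 0.103 with edgeR and 1.45e-08 with DESeq2). All TBT libraries exceeded all DMSO libraries there. Its islands covered 25.1%, 14.9%, 24.5% and 18.4% of the region under DMSO and 74.9%, 74.6%, 61.2% and 84.8% under TBT. Reads per covered kb were 68.0, 47.8, 52.7 and 47.8 under DMSO and 61.3, 44.9, 46.8 and 49.0 under TBT. So islands covered more of the region under TBT, while reads per covered kb overlapped between the treatments. The log2 change per covered base was -0.11 ± 0.04 (adjusted p = 0.846, edgeR). Whether the islands were longer or more numerous was not examined.

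The same held for the next region, chr10:74917000-75002799, which rose from 169 ± 67.9 to 698 ± 239 CPM (SD, n = 4, log2 change 2.04 ± 0.35 SE, adjusted p = 0.222 with edgeR and 8.81e-06 with DESeq2) while its covered share went from a mean of 15.2% to 70% and its log2 change per covered base was -0.11 ± 0.06. The other regions of this direction were those of the olfactory receptor gene Olfr283 (chr15:98358400-98387399, 1.30 ± 0.25), of the predicted gene Gm16108 (chr5:114021200-114069199, 1.07 ± 0.24) and chr6:97266200-97294399 with no gene start (1.37 ± 0.33). Their adjusted p lay at 0.331, 0.467 and 0.472 with edgeR and at 5.87e-06, 0.00174 and 0.0139 with DESeq2, and their changes per covered base at 0.00, -0.04 and -0.21.

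On the lower side, chr19:53068200-53094999, with the starts of Gm30234, 1700054A03Rik and Gm41862 in it or within 2000 bases, had 332, 314, 278 and 261 CPM under DMSO and 149, 158, 140 and 133 CPM under TBT (log2 change -1.03 ± 0.20 SE, adjusted p = 0.331 with edgeR and 5.23e-08 with DESeq2). The groups did not overlap, and the mean covered share was 84.3% and 40.7%. The region of Trpv4, a cation channel gene (chr5:114650400-114663799), had a log2 change of -0.94 ± 0.22 and that of Elapor2 (chr5:9264200-9267799) -0.85 ± 0.21, both at an adjusted p of 0.472 with edgeR (0.0111 and 0.159 with DESeq2). The regions chr7:126532200-126541199 and chr6:35793200-35826799, with no gene start at hand, stood at -1.08 ± 0.23 and -1.24 ± 0.27 (adjusted p = 0.429 and 0.454 with edgeR, 0.0176 and 0.00117 with DESeq2). Per covered base the 5 regions stood at 0.20, 0.29, 0.29, 0.22 and -0.07.

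Across all 2859 regions the log2 change of reads and that of covered length had a Pearson correlation of 0.97. Reads were counted only inside the islands whose lengths were summed, so a high correlation follows in part from the way of counting. It is a description over regions, which share the libraries and their depth and are not replicates. Per covered base, edgeR again called 0 regions higher (0%) and 0 lower (0%), with 143 at an unadjusted p under 0.05 (5.00%), a smallest adjusted p of 0.778 and a spread between libraries of 7.55%. The median standard error of the log2 change was 0.07 per covered base and 0.29 for reads. Of the regions, 2782 (97.3%) had a log2 change per covered base within 0.25 of 0, 1 was beyond 0.5, and the extremes were 0.55 and -0.44. The TBT libraries lay above all DMSO libraries per covered base in 51 regions (1.78%) and below in 54 (1.89%). The 26 regions that DESeq2 called for reads had changes per covered base of -0.36 to 0.29, and in all 26 the covered length changed in the direction of the reads. Reads per covered base describe only stretches that were called in a library, so a loss that ended the call is not in them. A gain that brought a new stretch into an island adds covered length along with reads, and is divided out. The counts of 0 per covered base therefore cannot speak to gains or losses of covered length.

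**Figure D4:**
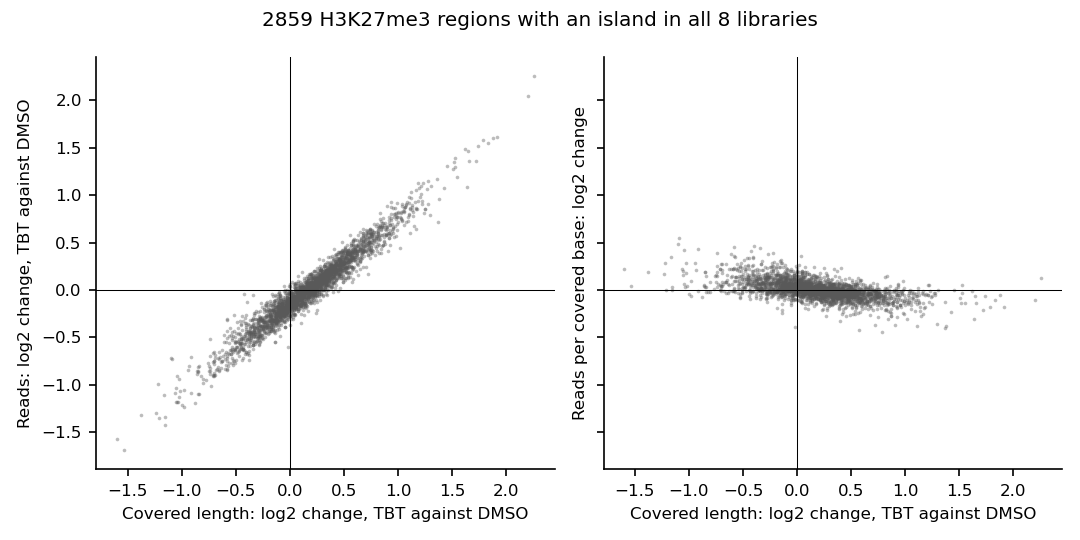
Log2 change (TBT against DMSO) of reads (left) and of reads per covered base (right) against the log2 change of covered length, 1 point per region, 2859 regions. On the left the points follow the diagonal (Pearson 0.97), in part because reads were counted only inside the covered stretches. On the right they stay between -0.44 and 0.55.

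All these changes are relative to the trimmed mean of the regions, because the counts were scaled by TMM (median log2 change -0.002). With library depth recovered from the deposited folds instead, the median log2 change of reads was 0.244 and per covered base 0.076, and again 0 regions passed in either direction.

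edgeR called no region on any of the gene lists, per read count or per covered base. DESeq2 called 1 on the developmental transcription factors, Tbx4 (adjusted p = 0.0391), and 1 on the imprinted genes, Rasgrf1 (adjusted p = 0.0304). The 44 tested regions on developmental transcription factors had a median log2 change per covered base of 0.03, the 23 on neural regulators 0.06, the 21 on ligands -0.04, the 8 on adipogenic regulators -0.02 and the 6 on adipocyte markers -0.00, beside a median of -0.00 over all 2859 regions. edgeR's smallest adjusted p on any list was 0.590 (reads), at Tbx4, a limb regulator. There, reads were 48.5, 41.2, 136 and 80.1 CPM under DMSO and 236, 215, 192 and 163 CPM under TBT, without overlap, while reads per covered kb were 58.6, 49.5, 44.9 and 49.3 against 57.6, 43.5, 44.9 and 51.7. Here too islands covered more of the region under TBT (mean 61.5% against 21.3%), and reads per covered kb overlapped. The Rasgrf1 region (chr9:89904600-89925399) had 85.8, 66.1, 76.6 and 94.3 CPM under DMSO and 130, 195, 131 and 134 CPM under TBT, also without overlap. Its mean covered share was 30.3% and 65.6%. The region over the Hoxd cluster had 1761 ± 73.0 CPM under DMSO and 1744 ± 85.9 CPM under TBT (SD, n = 4, adjusted p = 0.989), and the posterior Hoxa region 1426 ± 61.1 and 1543 ± 76.0 CPM (adjusted p = 0.854, edgeR).

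Dividing by the input reads of each region gave another result. edgeR then called 15 regions higher (0.525%) and 1 lower (0.0350%) under TBT. The first by p was Klc3, a kinesin light chain gene (chr7:19402200-19404999), with a fold over input of 1.42, 1.55, 1.80 and 2.40 under DMSO and 4.34, 4.10, 4.80 and 3.89 under TBT (log2 change per input read 1.19, adjusted p = 0.00273). Its ChIP reads were 143, 104, 142 and 172 under DMSO and 163, 137, 108 and 194 under TBT, with overlap. The input reads per covered kb were 50.6, 50.6, 48.0 and 45.9 in the DMSO input and 23.8, 26.1, 32.0 and 24.3 in the TBT input. In all 15 higher regions the TBT input was the sparser of the pair, with a median ratio of 0.78 (0.54 to 0.91), beside 1.03 over all tested regions. With 1 input per treatment, a difference between the inputs and one between the treatments cannot be told apart, and the changes per covered base of these 15 regions were 0.01 to 0.46, none past the threshold.

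Regions called in 1 treatment only could not be tested on reads. An island was present in all 4 TBT libraries and in 0 DMSO libraries in 289 merged regions (0.426%), and in all 4 DMSO and 0 TBT libraries in 129 (0.190%). Their median island fold was 1.42 and 1.41, beside 1.41 in the regions of all 8 libraries. Summed over the set, the fold in each library was 1.31 to 1.42 in both, beside 1.26 to 1.50 in the regions of all 8. The regions of 1 treatment had median widths of 9400 and 8600 bases. The longest on the TBT side, chr2:173039600-173088999, held only predicted genes and had 978, 1583, 1528 and 1512 reads at folds of 1.21, 1.16, 1.15 and 1.20. The next lay on Sptbn5, a spectrin gene (chr2:120054400-120093999), with folds of 1.13, 1.21, 1.27 and 1.33. On the DMSO side, the region of the thromboxane synthase gene Tbxas1 (chr6:38902800-38942799) had 557, 1635, 798 and 984 reads at folds of 1.18, 1.12, 1.23 and 1.21. A library with no island there may hold reads below the caller's threshold, and such reads are not in the files used here. With uncalled islands set to 0 reads, edgeR called 295 of 6280 regions higher (4.70%) and 130 lower (2.07%), a setting that takes a missing call as a loss.

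The 2 counts hang on single libraries: without DMSO replicate 2 they were 338 and 344, and without DMSO replicate 4 they were 516 and 266. Fewer libraries had to match in each case.

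Gene starts were counted in the same way. Of the 25748 genes, 88 (0.342%) had a start in islands of all 4 TBT and 0 DMSO libraries and 5 (0.0194%) the reverse, among them H2-Eb2, a class II histocompatibility gene, and Clec4g. Counted by start site these were 101 and 5, and without DMSO replicate 2 they were 116 and 30. The difference between the 2 directions was not tested. On the TBT side stood Irf5, an interferon regulatory factor gene, with a mean fold of 1.26 ± 0.10, Tcf7, a Wnt effector, with 1.46 ± 0.35, and the necroptosis kinase gene Ripk3 with 1.43 ± 0.11 (SD, n = 4). The RNA of Irf5 was higher under TBT, at 21.5 ± 3.47 and 29.8 ± 3.99 CPM (SD, n = 6, adjusted p = 0.00109, edgeR), and that of Tcf7 and Ripk3 did not pass (adjusted p = 0.966 and 0.431). Of the 24 among the 88 genes with enough RNA to test, 4 were higher and 8 lower under TBT, with a median log2 change of 0.01. Over all 12529 genes tested, RNA was higher in 1878 (15%) and lower in 1745 (13.9%); scaled to the spike-in RNA, the counts were 1802 and 293.

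The RNA was set beside the mark because H3K27me3 is known from genes with little transcript. Among genes with a start in islands of all 8 libraries, 178 of 1108 (16.1%) had enough RNA to be tested, with a median of 6.25 CPM under DMSO, and among genes with no island 6030 of 10669 (56.5%) did, with a median of 56.3 CPM. Of those 178, 33 were higher (18.5%) and 15 lower (8.43%) under TBT. Over all tested genes with a start the shares were 15.9% and 14.4%. For starts in islands of 1 to 7 libraries they were 18.1% and 13.3%. The median log2 change of the 178 was 0.08, beside -0.01 for the genes with no island.

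Several genes rose in RNA while they kept the mark. Pde1b RNA was 1.03 ± 0.575 CPM under DMSO and 18.9 ± 3.72 CPM under TBT (SD, n = 6, log2 change 4.12 ± 0.25 SE, adjusted p = 3.91e-16, edgeR). The fold over its start was 1.20, 1.18, 1.35 and 1.68 under DMSO and 1.61, 1.30, 1.71 and 1.74 under TBT, and its promoter is among those printed. The region around it, chr15:103476600-103576199, held 1172, 1396, 1040 and 897 CPM of ChIP reads under DMSO and 824, 551, 907 and 891 CPM under TBT (log2 change -0.50 ± 0.19, adjusted p = 0.682). All but 1 of the TBT libraries lay below the DMSO libraries there, and per covered base the change was 0.10 ± 0.03 (adjusted p = 0.846). Htra3, a secreted serine protease gene, rose in RNA from 9.77 ± 2.13 to 50.5 ± 5.00 CPM with a mean fold over its start of 1.56 ± 0.23 and 1.86 ± 0.46 (SD, n = 4). Col8a2, a collagen gene, rose from 1.16 ± 0.354 to 3.50 ± 1.14 CPM with mean folds of 2.64 ± 0.62 and 2.36 ± 0.26. Bmp4, a growth factor gene, fell from 2.27 ± 1.09 to 1.02 ± 0.448 CPM (adjusted p = 0.0286, edgeR, and 0.0777 with spike-in scaling) with mean folds of 1.55 ± 0.26 and 1.71 ± 0.18.

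RNA also changed at Cyp26b1 and Cebpa, which held islands in 6 and 7 libraries, and at Ebf2, partly covered in all 8. These are named genes and not a count over all such genes. Cyp26b1, which breaks down retinoic acid, rose from 71.7 ± 5.71 to 407 ± 13.8 CPM (SD, n = 6), while islands covered 0%, 0%, 100% and 100% of it under DMSO and 100%, 86.2%, 100% and 77.8% under TBT. Cebpa rose from 15.5 ± 1.91 to 26.2 ± 1.24 CPM and Ebf2 from 12.6 ± 2.05 to 38.7 ± 6.13 CPM, with the coverage given above. None of the 3 had less coverage under TBT in the mean (91.0% against 50.0% for Cyp26b1, 95.0% against 59.3% for Cebpa and 50.9% against 38.9% for Ebf2). Over all autosomes the mean covered length was also larger under TBT, at 168 against 140 Mb, so this is not particular to these genes. In bulk samples, a mark on some cells and RNA from others cannot be told apart, nor can fewer cells of a type and less RNA per cell.

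Genes of the machinery that writes, reads and erases the mark moved in RNA to a small extent. Of 32 tested, 7 were higher and 8 lower under TBT, beside 15% and 13.9% of all genes tested. The PRC2 genes Ezh2, Eed and Suz12 were lower, from 151 ± 5.77 to 123 ± 6.54, 75.5 ± 7.54 to 63.8 ± 2.64 and 176 ± 9.99 to 159 ± 7.36 CPM (SD, n = 6). These 3 calls rest on the scaling. Scaled to the spike-in RNA, which moved the median log2 change of all genes from -0.01 to 0.08, their log2 changes went from -0.30 to -0.21, from -0.24 to -0.15 and from -0.15 to -0.05 (edgeR's adjusted p = 0.0506, 0.183 and 0.707), so that no call was left, and over the list 5 genes were higher and 1 lower. Ezh1 was higher, from 30.0 ± 4.34 to 38.8 ± 3.02 CPM, and so was the demethylase gene Kdm6b, from 119 ± 11.9 to 161 ± 12.9 CPM, under both scalings. Of the 24 machinery starts, 0 lay in islands of all 8 libraries and 13 in islands of 1 to 7. Within the Ezh2 gene, islands covered 8.20%, 4.50%, 2.15% and 12.0% under DMSO and 0% in all 4 TBT libraries. Cbx8, a Polycomb reader, lay in the 1 tested region on this list, with 555 ± 65.9 and 508 ± 34.2 CPM of ChIP reads (n = 4, adjusted p = 0.910, edgeR).

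H3K4me3, the mark of active promoters, was mapped in 4 further libraries per treatment. Of the 2859 H3K27me3 regions, 1313 (45.9%) overlapped an H3K4me3 region called in all 8 of those libraries. The median fold of H3K27me3 over input was 1.51 in these and 1.42 in the rest. The median log2 change of H3K27me3 per covered base was 0.005 and -0.005. Of the 1641 H3K4me3 regions that overlapped them, edgeR called 0 higher and 1 lower under TBT and DESeq2 13 higher and 11 lower. edgeR's counts stand beside 10 higher (0.0811%) and 6 lower (0.0486%) among all 12333. That 1 region, chr19:45298400-45314399, had an H3K4me3 log2 change of -0.80 ± 0.13 SE (adjusted p = 0.0452, edgeR) and lay in an H3K27me3 region with a change per covered base of 0.01 ± 0.06. It did not pass when any single H3K4me3 library other than TBT replicate 2 or 3 was left out.

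The authors' deposited table of differential H3K27me3 peaks lists 4329 peaks, 4272 of them on autosomes, with 2028 higher under TBT and 2244 higher under DMSO. Set against the islands, 75.6% of the autosomal peaks in the authors' deposited table had no island in any library of 1 treatment, and 48 had an island in all 8 libraries. The commonest patterns were an island in 2 TBT and 0 DMSO libraries (1165 peaks higher under TBT) and in 2 DMSO and 0 TBT libraries (1211 peaks higher under DMSO). An island in all 4 libraries of a treatment and none of the other was seen for 111 and 69 peaks. The median size of the deposited log2 fold was 4.27 over all autosomal peaks and 1.19 over the 48.

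The peak with the smallest FDR in the authors' deposited table on the TBT side, chr11:120005800-120027399 on the kinase gene Aatk, has log2 concentrations of -0.19 for DMSO and 7.26 for TBT and an FDR of 1.20e-17, and islands lay in 0 DMSO and 4 TBT libraries. On the DMSO side it was chr17:9887000-9908199, with no gene start, at 7.60 and -0.22 with an FDR of 1.34e-21 in the authors' deposited table, and islands in 4 DMSO and 0 TBT libraries at folds of 1.24, 1.42, 1.26 and 1.41. Another peak of that side, chr6:144529800-144575799 inside the gene of the cartilage regulator Sox5, is listed at 7.51 and -0.22 in the authors' deposited table although 2 TBT libraries held an island there. Among the 48 peaks with islands throughout, the smallest FDR in the authors' deposited table belonged to chr6:98360800-98393999, higher under DMSO (log2 concentrations 8.41 and 6.47). Gene starts lay in peaks of 486 genes on the TBT side, of which 214 were tested for RNA with 34 higher (15.9%) and 36 lower (16.8%), and of 186 genes on the DMSO side, of which 56 were tested with 12 higher (21.4%) and 10 lower (17.9%), beside 15% and 13.9% of all genes tested.

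**Figure D5:**
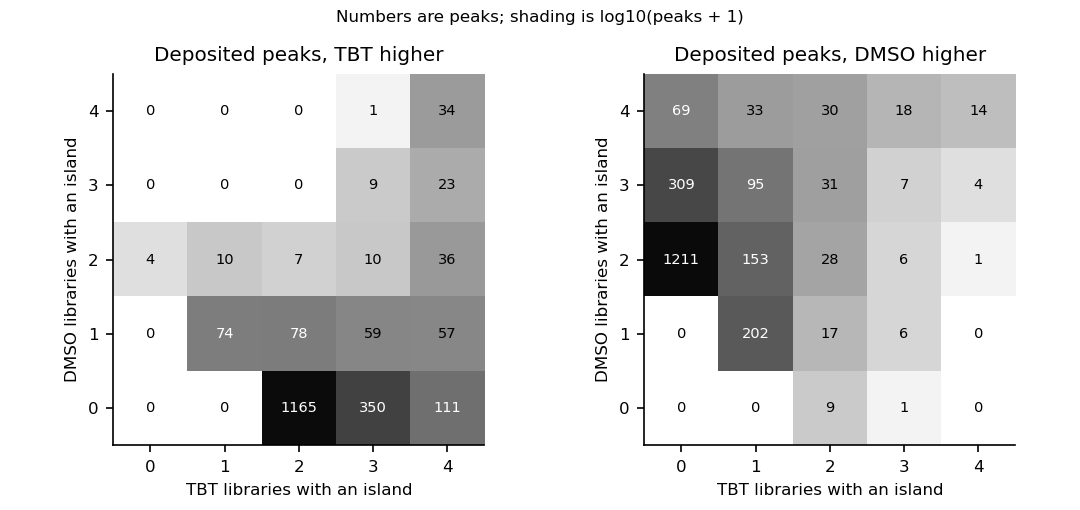
Autosomal peaks of the authors' deposited table, higher under TBT (left) or under DMSO (right), by the number of TBT (x axis) and DMSO (y axis) libraries with an overlapping island; numbers are peaks and shading is log10 of peaks plus 1. The darkest cells are 1165 peaks with islands in 2 TBT and 0 DMSO libraries and 1211 with the reverse.

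The labelled cell type was checked in RNA. Stromal cell markers summed to 3602 to 3718 CPM under DMSO and 3249 to 3524 CPM under TBT, with Nes as the most abundant, and 17 of 18 were tested. Prrx1 stood at 470 ± 9.30 CPM and Twist1 at 141 ± 5.66 CPM under DMSO (SD, n = 6), and neither start lay in an island. Eng, on the same list, was low, at 6.05 ± 1.10 CPM under DMSO and 6.79 ± 0.719 CPM under TBT. Blood cell markers summed to 325 to 389 CPM, most of it Cd34 at 234 CPM, and the common leukocyte gene Ptprc was at most at 0.496 CPM. Endothelial markers summed to 14.4 to 24.1 CPM and epithelial markers to 42.0 to 52.3 CPM, with Cdh5 at most at 1.17 CPM and Epcam at 0.493 CPM. Of the 17 stromal markers tested, 3 were higher and 4 lower under TBT, beside 15% and 13.9% of all genes tested. Thy1 and Cd44, markers of MSCs, were among the lower and Ly6a among the higher (adjusted p = 3.63e-08, 9.31e-14 and 2.14e-07, edgeR). Whether this bears on the mark was not tested.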

How the data were processed

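ChIP-seq for H3K27me3 was analysed from the islands the authors deposited for each of the 8 libraries, each with its counts of ChIP and input reads, p-value, FDR and fold ratio over the scaled input. By their names these files used a window of 200, a gap of 600 bases and an FDR of 0.001. The submitters' processing notes name SICER, DiffBind, STAR, SAMtools, FastQC and DESeq2 and the builds GRCm38 and mm10, without roles or versions. The authors also deposited gene read counts for 24 RNA libraries and a peak table comparing the treatments, whose columns are log2 concentrations, log2 folds, p-values and FDR. Each library held 6053178 to 11266617 reads in autosomal islands; whole-library totals are not given in the sources used here, and relative depth was recovered from the deposited counts and folds.

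Islands of 19 autosomes were merged, and regions with an island in all 8 libraries were tested with edgeR 4.0.16 (quasi-likelihood, TMM, R 4.3.3), with Benjamini-Hochberg adjustment over all regions. Reads per covered base and per input read used these lengths and counts as offsets. CPM are TMM-scaled. RNA was fitted over all 24 libraries (12529 of 45317 entries tested) and DESeq2 1.42.0 was an alternative. Besides TBT and DMSO these include libraries given rosiglitazone or the RXR agonist AGN194204, which share the filter, scaling and estimate of spread. With the TBT and DMSO libraries alone, edgeR called 1735 genes higher and 1566 lower under TBT. Single values were compared by exact two-sided permutation over 70 arrangements. Gene starts and promoters came from RefSeq GRCm38.p6, which gave a start for 390 of 553 listed genes; a region was given a gene whose start lay within 2000 bases. The tests were tried on simulated counts.

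Named regions were the 5 with the smallest p in each direction, the first by p on each list, the Hox and other fixed genes, the longest of 1 treatment and the top deposited peaks, of which the text gives a part. Regions passing DESeq2 or the test per input read were added after their values were seen, as were the promoters shown and the genes with the largest RNA change. The members and lists were chosen with earlier results of these data known, and 1 list was drawn from this study's own RNA results.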

Additional observations from a re-analysis of the deposited data

Results flagged for a closer look

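In the region chr7:126532200-126541199, DMSO replicate 4 lay apart from the other DMSO libraries, at 43.1 CPM against 68.9, 73.7 and 70.6 CPM in DMSO replicates 1 to 3. The gap made up 0.843 of the group's range, above Dixon's critical value for 4 libraries. Its islands covered 40.0% of the region there and 57.8%, 51.1% and 60% in the other DMSO libraries. The TBT libraries were at 33.9, 33.2, 29.0 and 24.6 CPM. Chance marks about 1 in 20 groups in this way, and 48 groups of 4 libraries were examined.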

How the results depend on the processing

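The counts of 0 regions higher and 0 lower stayed at 0 under the other scalings, without a filter on low counts, with 50% or 80% coverage in every library, islands of fold 2 or more, wider joining and without each library in turn (unadjusted p under 0.05 in 157 to 242 regions), and per covered base without each library. They became 17 and 9 with DESeq2, 295 and 130 with uncalled islands as 0, and 15 and 1 per input read. The settings of 50% coverage and of recovered depth per covered base, those on gene starts, on regions of 1 treatment and on the deposited peaks and the repeats per covered base without a library were chosen after seeing the data. Only 13 regions had 80% coverage in every library and 24 an island of fold 2 or more in all 8.

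Of the named log2 changes of reads, 9 turned sign per covered base: -0.11 at chr8:117998800-118067399 and at chr10:74917000-75002799, -0.04 at Gm16108, -0.21 at chr6:97266200-97294399, 0.20 at chr19:53068200-53094999, 0.22 at chr7:126532200-126541199, 0.29 at Trpv4 and at Elapor2 and 0.10 at Pde1b. Per input read the turned values were -0.03, -0.16, -0.17 (Olfr283), -0.23, 0.08, 0.46, 0.15, 0.03 and 0.07 for the same regions without Gm16108. Per covered base with the recovered depth they were -0.03, -0.04, -0.14, 0.28, 0.30, 0.01 (chr6:35793200-35826799), 0.37, 0.36 and 0.18. Per covered base the difference is, by construction, the change in covered length; for the others the cause was not tested.

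Without 1 library the differences between treatments ran from 2282 to 6369 islands, 16.9 to 37.0 Mb covered, 0.929 to 2.19 M island reads and -0.0125 to 0.0341 in median fold (0.0140 with all libraries), reversed without DMSO replicate 1 (-0.0125) and TBT replicate 4 (-0.00976). For gene starts in islands they ran from 932 to 1604, per covered Mb from 1.97 to 3.61, and islands of fold 2 or more gave 320 (exact p = 0.229). Regions in all TBT and no DMSO libraries rose from 289 to between 338 and 663, and those in all DMSO and no TBT libraries from 129 to between 147 and 344, since fewer libraries had to match; gene starts went from 101 to 116 to 195 and from 5 to 7 to 30.

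Deviations of same-numbered H3K27me3 libraries correlated at 0.042, 0.057, -0.045 and 0.045, and those of differently numbered ones at -0.061 to 0.051. For the RNA and H3K4me3 libraries this was not examined. With the replicate block 0 regions passed (199 unadjusted), the difference in gene starts of 1318 had an exact p = 0.125, the smallest 4 pairs allow, and RNA calls became 1999 and 1883.

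Of the deposited peaks, 3 had an island over at least 50% of the peak in all 8 libraries and 13 had an FDR of at most 0.01 with islands in all 8. RNA calls lower under TBT, 1745 at first, became 293 with spike-in scaling. H3K4me3 regions called inside H3K27me3 regions became 13 higher and 11 lower with DESeq2 and 0 lower with 80% coverage, and 0 to 1 lower without 1 library.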
